A study of Mus musculus with 40 samples.

Results

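The comparison described here sets 16 mice labelled mutant whose 24-h LA value lay below 30000 against the 3 mice labelled wild type. These are 19 of the 40 arrays of a series on alpha-CaMKII HKO mice, in which the dentate gyrus was examined. The other 21 arrays come from mutants with values from 41603.46 to 128827.08 and are used only beside the results. All animals have the C57BL/6J background, and total RNA of the dentate gyrus was hybridised to 1 Affymetrix mouse array per animal. LA is read here as locomotor activity, in a unit that the labels do not state. HKO is read as a heterozygous knockout. The allele, the kinship of the wild types, the sex of the animals and the hour of dissection are not stated there either. The mutants were 23 to 33 weeks old (median 27), and wild types 1, 2 and 3 were 29, 27 and 28 weeks old. The labels count each array as a biological replicate, and p-values measure the spread between these samples.

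The activity that defines the mutants lay between 16273.92 and 25590.06, and its median was 19522.2. Wild types 1, 2 and 3 had values of 20979.78, 17522.94 and 14301.12. The wild types thus lay inside or just below the mutant range. The mean log2 activity of the mutants was higher by 0.189, which is a description only, since the mutants were chosen by this value. Mean age, which was not used in the choice, differed by -0.81 weeks (exact permutation test over the 969 regroupings, p = 0.721).

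The protein of Camk2a is one of the subunits of calcium/calmodulin-dependent protein kinase II, an abundant enzyme of excitatory synapses that is switched on by calcium entry and takes part in synaptic plasticity. The dentate gyrus is made mostly of granule cells, which are born throughout life. As they mature they lose transcripts of young neurons and gain others, among them Calb1 (the calcium buffer calbindin), Dsp and Tdo2. Mice with 1 working copy of Camk2a have been described as having an immature dentate gyrus, in which granule cells of adults lack such mature transcripts.

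Values below are log2 RMA values, on which 1 unit is a doubling. Wild-type values are given in the order of the arrays labelled wild type 1, 2 and 3, and mutant values as the lowest, median and highest of 16. Camk2a read 12.79, 12.81 and 12.08 in the wild types. In the mutants it read 12, 12.11 and 12.19. Wild types 1 and 2 lay above all 16 mutants, and the array labelled wild type 3 lay among the mutants. The difference was -0.45 with all 3 wild types (SE 0.097, limma adjusted p = 0.014) and -0.69 without the array labelled wild type 3 (SE 0.064, adjusted p = 1.2e-07). Without the array labelled wild type 1 or wild type 2 it was -0.34 (adjusted p = 0.42) or -0.33 (adjusted p = 0.33). Of the 6 probe sets for Camk2a, 3 passed with all 3 wild types over all probe sets and all 6 read lower in mutants. The targeted gene therefore went against 1 wild-type label. Among the higher-activity mutants, the array labelled mutant 27 read 12.9 for Camk2a, and its activity was 46297.38. Camk2a thus goes against the labels of both arrays. Whether either label is in error, or whether the arrays were exchanged, was not tested, and the arrays were kept under their labels.

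Arrays were also grouped by runs of 8 consecutive samples, a position in the deposit order that need not be a hybridisation batch. Wild types 1, 2 and 3 stood in runs 1, 2 and 4 of 5, each with 3 of the 16 mutants. RNA degradation was read from the actin controls, as the log2 gap between probe sets at the 3' and 5' ends, which was 1, 1.47 and 1.51 in the wild types and 1.03 to 1.7 in the mutants (exact permutation p = 0.401). The identity of the tissue was read from Prox1, the transcription factor that defines granule cells, at 9.27, 9.23 and 9.18 in the wild types and 8.57, 9.09 and 9.47 in the mutants. C1ql2, a synaptic organiser secreted by granule cells, read 10.44, 10.04 and 9.91 in the wild types and 9.53 to 10.48 in the mutants. All 3 wild types lay inside the mutant range in both genes.

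Of 18194 genes, 484 differed with all 3 wild types, 253 higher and 231 lower in mutants (2.66% of genes, 1.39% higher and 1.27% lower). Without the array labelled wild type 3, 2047 genes differed (11.3%), of which 871 were higher (4.79%) and 1176 lower (6.46%). Counts per gene list below are to be read beside these shares of 2.66% and 11.3%. Each array centred on its own median gave 1192 higher and 798 lower in that second fit, so the balance of directions there depends on the scaling. That array was singled out from expression values of these data, so the fit without it is no independent test. Of the 484 genes, 481 passed in both fits with the same direction. In the 100 genes named by the rule that passed with all 3 wild types, the difference kept its direction without the array labelled wild type 3. It was then 1.14 to 1.69 times as large (median 1.49). Leaving out a wild type that lies at the mutant level widens a difference by arithmetic, so this ratio is a description only. The median over all genes was -0.018 in the first fit and -0.046 in the second. No gene passed without the array labelled wild type 1 or without wild type 2 (limma adjusted p, with 1033 and 1652 genes at an unadjusted p under 0.05). With the run as a block 925 genes passed (5.08%), and with the run as a block and without the array labelled wild type 3, 2740 (15.1%).

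The 2 fits rest on the same pair of arrays. The array labelled wild type 3 lay within the range of the 16 mutants for 17012 of 18194 genes, wild type 2 for 14376 and wild type 1 for 12032. Of the 2047 genes that passed without it, it lay nearer to the mutant mean than to the mean of wild types 1 and 2 in 2022. That count is a description only, since the array was singled out for a mutant-like profile and these genes by wild types 1 and 2. Each wild type was also compared with the 3 mutants of its own run, so that these comparisons share no array. Against wild type 1, 374 genes differed by more than 1 log2 unit, of which 325 had the same direction against wild type 2 and 273 differed there by at least 0.5. Against wild type 2, 237 genes differed by more than 1, of which 234 had the same direction against wild type 1 and 229 reached 0.5. Against the array labelled wild type 3, 2 genes differed by more than 1, Erdr1 and G530011O06Rik, both singled out after their values were seen. Of the 374 genes, 2 reached 0.5 in the same direction there. The plot of within-run differences shows these comparisons.

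**Figure D1:**
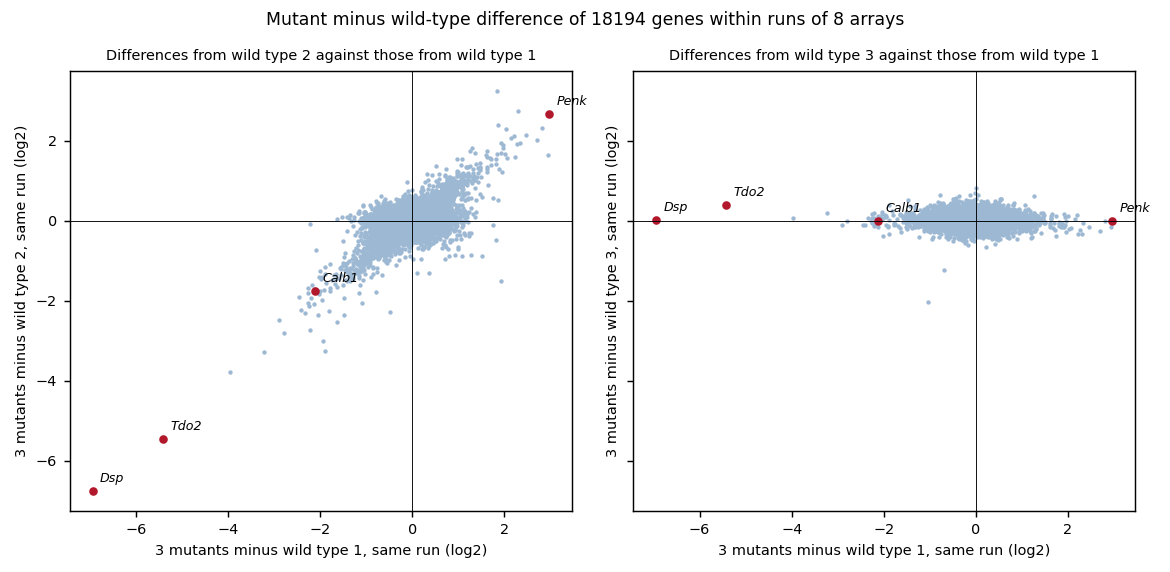
Each point is 1 of 18194 genes. The horizontal axis is the mean log2 value of 3 mutants minus wild type 1 of the same run, and the vertical axis the same against wild type 2 (left) or the array labelled wild type 3 (right). Dsp lies at -6.95 and -6.75 on the left, and at 0.01 on the vertical axis on the right.

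Genes that mark mature granule cells held the widest gaps among the named genes. Of 22 measured, 7 fell and 2 rose with all 3 wild types, and 7 were lower and 6 higher without the array labelled wild type 3. The median of the list was -0.161 and -0.205 in the 2 fits. Dsp encodes desmoplakin, which ties desmosomes to intermediate filaments. It read 9.91, 10.14 and 3.31 in the wild types and 2.6, 3.12 and 3.76 in the mutants. All 16 mutants lay over 6 log2 units below wild types 1 and 2. The array labelled wild type 3 lay among them. The difference was -4.61 (SE 0.762, limma adjusted p = 0.01), or -6.85 without that array (SE 0.198, adjusted p = 2.6e-15), a 115-fold gap.

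Tdo2, which encodes the enzyme that opens the tryptophan ring on the way to kynurenine, read 8.63, 8.55 and 2.56 in the wild types. The mutants read 2.57, 2.96 and 3.44. Here the array labelled wild type 3 lay just below the lowest mutant. The difference was -3.62 (SE 0.683, adjusted p = 0.01), and -5.63 without that array (SE 0.175, adjusted p = 6.1e-15), which is 49.5-fold. Dsp and Tdo2 each have 3 probe sets, and all of them passed in the same direction.

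Calb1 fell by a smaller amount. It read 11.46, 11.59 and 9.6 in the wild types and 9.1, 9.58 and 10.2 in the mutants, a difference of -1.28 (SE 0.254, adjusted p = 0.012). Against wild types 1 and 2 alone it was -1.92 (adjusted p = 5.7e-08), a 3.79-fold gap, and all 4 of its probe sets passed. Il1r1, the signalling receptor of interleukin-1, read 7.2, 8.13 and 4.79 in the wild types and 4.51, 5.02 and 5.31 in the mutants. It fell by 1.68 on the log2 scale (SE 0.354, adjusted p = 0.013). No mutant overlapped wild types 1 and 2 in either gene.

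The mature list did not move as a whole. Lct (lactase, -0.49, adjusted p = 0.03), Tanc1 (a postsynaptic scaffold protein, -0.35, adjusted p = 0.019) and Ablim3 (an actin-binding protein, -0.5, adjusted p = 0.042) fell by smaller amounts. Plk5, a polo-like kinase relative found in brain, rose. It read 7.68, 7.45 and 9.27 in the wild types and 8.74, 9.21 and 9.58 in the mutants (1.03, SE 0.226, adjusted p = 0.015). Ntng1, which encodes the axonal adhesion protein netrin-G1, rose by 0.84 (SE 0.191, adjusted p = 0.019). The mean level of the 22 genes was 8.9, 9 and 8.33 in the wild types and 8.1 to 8.37 in the mutants. This mean includes the widest falls, Dsp and Tdo2, while the median difference of the list was -0.161 and -0.205 in the 2 fits.

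Of 21 young neuron genes, 3 rose and 0 fell with all 3 wild types, and 4 were higher and 2 lower without the array labelled wild type 3. Drd1 encodes a dopamine receptor that raises cAMP. It read 6.52, 6.79 and 8.94 in the wild types and 8.59, 8.85 and 8.98 in the mutants. No mutant came near wild types 1 and 2, and the rise was 1.4 (SE 0.266, adjusted p = 0.01), or 2.17 without the array labelled wild type 3 (adjusted p = 3.9e-12). Nhlh1, a basic helix-loop-helix factor of newborn neurons, read 5.4, 4.02 and 7.53 against 7.07, 7.32 and 7.66. Its rise of 1.7 (SE 0.355, adjusted p = 0.013) also separated all 16 mutants from wild types 1 and 2. Tmsb10, an actin-sequestering thymosin, rose by 0.63 (SE 0.127, adjusted p = 0.012).

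The best known young-neuron markers, by their brightest probe sets, did not pass in either fit unless the run was a block. Dcx, the microtubule protein doublecortin, read 5.56, 6.35 and 6.73 in the wild types and 5.92, 6.62 and 6.99 in the mutants. Its difference was 0.38 (SE 0.204, limma adjusted p = 0.45), and 0.64 without the array labelled wild type 3 (adjusted p = 0.076). With the run as a block and without that array Dcx passed (0.47, adjusted p = 0.045). Another Dcx probe set passed without that array (0.53, adjusted p = 0.039). Calb2, calretinin, read 9.83, 9.18 and 9.41 against 9.25, 9.57 and 10.27. It differed by 0.18 (SE 0.179, adjusted p = 0.76), and by 0.15 without that array (adjusted p = 0.74). With the run as a block it passed in both fits (0.37, adjusted p = 0.013, and 0.43, adjusted p = 0.0019). Mutants and wild types overlapped in both genes. Among 19 genes of stem cells and proliferation, Ccnd1 (cyclin D1) rose by 0.64 (adjusted p = 0.012) and Mcm6 (a subunit of the replicative helicase) fell by 0.89 on the log2 scale (adjusted p = 0.01), while 17 did not pass. Of the 19, 3 were higher and 1 lower without the array labelled wild type 3.

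**Figure D2:**
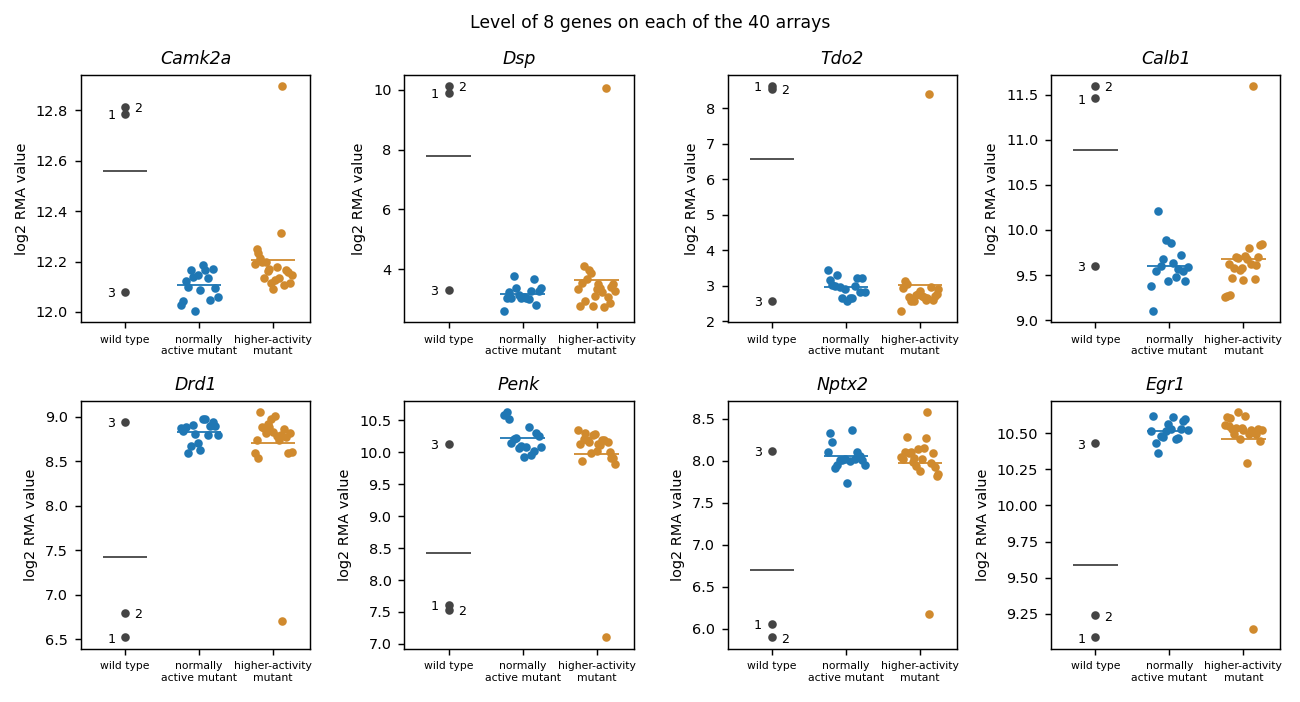
The log2 RMA value of 8 genes on each of the 40 arrays, with 1 point per array, a line at each group's mean and the wild types numbered. In each panel wild types 1 and 2 lie apart from all 16 normally active mutants, the array labelled wild type 3 lies with the mutants or, for Tdo2, at 2.56 just below their lowest value of 2.57, and the array labelled mutant 27 lies apart from the other higher-activity mutants.

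The stretches just before the transcription start are shown for the genes with the widest falls, Dsp and Tdo2. They are also shown for 3 genes that rose, Kcnt2, Fosl2 and Dusp1, picked among genes that hold the letters marked below. Each is the 250 bases upstream of 1 start of the gene on its own strand, from RefSeq on GRCm38.p6. Capitals mark the CRE half-site TGACG and the EGR site GCGGGGGCG on either strand, which do not overlap each other here.
Dsp, chr13:38151044-38151293, + strand: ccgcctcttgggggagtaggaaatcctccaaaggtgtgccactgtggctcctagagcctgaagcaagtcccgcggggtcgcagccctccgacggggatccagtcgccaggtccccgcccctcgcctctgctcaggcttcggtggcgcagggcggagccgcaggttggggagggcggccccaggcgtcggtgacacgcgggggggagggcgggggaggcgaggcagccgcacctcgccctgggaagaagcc
Tdo2, chr3:81975729-81975978, - strand: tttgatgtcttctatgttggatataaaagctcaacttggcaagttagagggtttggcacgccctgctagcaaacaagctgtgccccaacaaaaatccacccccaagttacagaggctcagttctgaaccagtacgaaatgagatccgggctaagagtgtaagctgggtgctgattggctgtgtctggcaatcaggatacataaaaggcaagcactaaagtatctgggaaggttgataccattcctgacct
Kcnt2, chr1:140245468-140245717, + strand: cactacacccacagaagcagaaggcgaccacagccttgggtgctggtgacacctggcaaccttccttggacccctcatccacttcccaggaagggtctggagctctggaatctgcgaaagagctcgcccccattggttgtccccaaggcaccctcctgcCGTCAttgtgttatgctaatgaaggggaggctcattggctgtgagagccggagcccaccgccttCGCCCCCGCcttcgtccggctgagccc
Fosl2, chr5:32136222-32136471, + strand: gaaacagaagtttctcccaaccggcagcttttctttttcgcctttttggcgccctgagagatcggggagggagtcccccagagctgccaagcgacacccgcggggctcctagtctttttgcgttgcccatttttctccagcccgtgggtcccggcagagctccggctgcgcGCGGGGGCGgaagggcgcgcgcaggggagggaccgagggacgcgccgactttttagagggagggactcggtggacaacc
Dusp1, chr17:26508473-26508722, - strand: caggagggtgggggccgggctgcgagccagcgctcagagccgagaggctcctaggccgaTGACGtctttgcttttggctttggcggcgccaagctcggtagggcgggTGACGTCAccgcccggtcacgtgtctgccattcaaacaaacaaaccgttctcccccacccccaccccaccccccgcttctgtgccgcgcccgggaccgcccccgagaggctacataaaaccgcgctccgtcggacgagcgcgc

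Dusp1 holds the half-site 3 times, of which 2 make up 1 palindromic CRE, TGACGTCA. Kcnt2 holds 1 half-site and 1 EGR site, and Fosl2 holds 1 EGR site. Neither set of letters stands in the Dsp or Tdo2 window. Since the rising genes were picked for holding these letters, the windows shown are no contrast of rises with falls. The half-site stands in 17.8% of all 32851 promoters of this length and the EGR site in 2.57%. Among the genes measured, 14453 have promoters in the table, which give 18110 windows, and the EGR site stands in 4.01% of these and the half-site in 22.7%. The EGR site stands in 25 of 294 windows (8.5%) of genes that were higher in mutants with all 3 wild types and in 13 of 211 (6.16%) of those that were lower. The half-site stands in 22.8% and 16.6% of the same windows. Of 90 named genes with promoters, 16 hold the half-site and 7 the EGR site, in both directions. With the EGR site, Bcl2l11, Fosl2, Irf1 and Kcnt2 rose, and Fbln1, Lamb1 and Tgfbr1 fell. With the half-site, Bcl2, Dusp1, Grm8, Kcnt2, Ldha, Nr4a3 and Sstr3 rose. Adamts3, Hrk, Il1r1, Iyd, Jag1, Neurod2 and Rreb1 also hold it and fell. Some genes have several windows, and a match is a description of letters only.

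Besides Camk2a itself, the genes of CaMK and calmodulin signalling that passed with all 3 wild types rose. Of 23 measured, 4 rose and 1 fell, and 6 were higher and 4 lower without the array labelled wild type 3 (medians 0.021 and 0.045). Camk4, a nuclear calmodulin-dependent kinase that phosphorylates CREB, read 8.17, 8.43 and 9.88 in the wild types and 9.38, 9.79 and 9.95 in the mutants (0.91, SE 0.204, adjusted p = 0.017). Camk1d, a relative activated by the same upstream kinases, read 9.76, 9.84 and 10.78 against 10.59, 10.83 and 10.94 (0.69, SE 0.125, adjusted p = 0.01). In both genes the lowest mutant lay above wild types 1 and 2.

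Nrgn encodes neurogranin, which holds calmodulin at rest, and rose by 0.41 (SE 0.105, adjusted p = 0.035). Camkk2, which activates CaMKI and CaMKIV, rose by 0.6 (SE 0.162), just inside the threshold, and was lost with age in the model (adjusted p = 0.057). Camk2b, the beta subunit that assembles with alpha, read 11.23, 10.87 and 10.65 in the wild types and 10.48, 10.64 and 11.08 in the mutants. Camk2g, the gamma subunit, read 10.6, 10.63 and 10.8 against 10.56, 10.75 and 10.86. Neither subunit passed, and wild type 1 lay above all mutants in Camk2b alone.

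Some genes that neurons switch on with activity were higher in the mutants. Of 25 immediate-early genes, 4 rose and 0 fell, and 8 were higher and 1 lower without the array labelled wild type 3 (medians 0.106 and 0.063). Egr1 is a zinc-finger factor that responds within minutes to synaptic activity. It read 9.09, 9.24 and 10.43 in the wild types and 10.37, 10.52 and 10.62 in the mutants (0.93, SE 0.153, adjusted p = 0.01), and the mutants did not overlap wild types 1 and 2. Fosl2, a partner in the AP-1 dimer, read 7.91, 8.02 and 9.04 against 8.88, 9.08 and 9.28 (0.76, SE 0.146, adjusted p = 0.01). Dusp1, a phosphatase that turns off MAP kinases, rose by 0.39 (SE 0.088, adjusted p = 0.017), and Nr4a3, an orphan nuclear receptor, by 0.37 (SE 0.089, adjusted p = 0.025).

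The rise did not extend over the whole family. Fos read 6.17, 6.01 and 5.23 in the wild types and 5.44, 5.75 and 6.55 in the mutants, and wild types 1 and 2 lay inside the mutant range. Arc, whose product removes AMPA receptors from synapses, read 5.24, 5.43 and 5.65 against 5.49, 5.86 and 6.57, and did not pass. Egr3 read 10.17, 10.36 and 11.38 in the wild types and 10.75 to 11.39 in mutants, and passed only without the array labelled wild type 3, where the difference was 0.84.

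Among 25 later activity-responsive genes 6 rose and 1 fell, and 9 were higher and 2 lower without the array labelled wild type 3 (medians 0.134 and 0.161). Nptx2, a secreted pentraxin that clusters AMPA receptors, read 6.06, 5.9 and 8.12 in the wild types and 7.73, 8.02 and 8.36 in the mutants (1.35, SE 0.255, adjusted p = 0.01). Cpne9, a calcium-dependent membrane-binding copine, read 5.09, 4.94 and 7.46 against 6.93, 7.23 and 7.61 (1.46, SE 0.299, adjusted p = 0.012). Sorcs3, a sorting receptor of the postsynapse, rose by 1.06 (SE 0.235) and Acvr1c, an activin receptor, by 1.01 (SE 0.23). The mean level of the 25 genes was 7.75, 7.76 and 8.13 in the wild types and 8.1 to 8.17 in the mutants.

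Of 20 brakes on MAP kinase signalling, 0 rose and 2 fell, and 1 was higher and 4 lower without the array labelled wild type 3. Dusp4, a nuclear MAP kinase phosphatase, read 7.27, 7.28 and 6.31 in the wild types and 5.87, 6.22 and 6.77 in the mutants (-0.71, SE 0.165, adjusted p = 0.021). Spry1, an inhibitor of growth factor signalling to ERK, fell by 0.51 on the log2 scale (SE 0.121, adjusted p = 0.024). In the cAMP list, with 32 members measured, Adcy8, a calcium-stimulated adenylyl cyclase, rose by 0.65 (SE 0.148, adjusted p = 0.019). The share of this list that passed was 3.12% in the first fit and 28.1% in the second, against 2.66% and 11.3% of all genes. Without the array labelled wild type 3, 8 of the 32 were higher and 1 lower, among them Adcy1, another calcium-stimulated cyclase, which read 12, 11.99 and 12.51 in the wild types and 12.3, 12.41 and 12.58 in the mutants.

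Peptide transmitters were among the widest rises. Of 19 ligands, 3 rose and 0 fell, and 4 were higher and 1 lower without the array labelled wild type 3, while the list's median was -0.004 and -0.1. Penk encodes the precursor of the enkephalins, opioid peptides. It read 7.61, 7.53 and 10.14 in the wild types and 9.92, 10.18 and 10.63 in the mutants, with a gap of more than 2 log2 units between wild types 1 and 2 and the lowest mutant. The rise was 1.79 (SE 0.31, adjusted p = 0.01), or 2.65 without the array labelled wild type 3 (SE 0.149, adjusted p = 8.9e-11), a 6.27-fold gap. Grp, gastrin-releasing peptide, read 8.87, 9.05 and 10.94 against 10.88, 11.08 and 11.21 (1.44, SE 0.229, adjusted p = 0.01). Gal, the precursor of galanin, read 5.54, 5.53 and 6.85 against 6.62, 6.83 and 7.03 (0.85, SE 0.164, adjusted p = 0.01).

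Peptide receptors rose in 5 of 27 genes and fell in 0, with 5 higher and 6 lower without the array labelled wild type 3. Ramp3, a partner that sets the ligand of calcitonin-family receptors, read 5.56, 5.93 and 8.12 in the wild types and 7.78, 7.94 and 8.3 in the mutants (1.46, SE 0.286, adjusted p = 0.011). Crhr1, the main receptor of the stress peptide CRH, rose by 0.78 (SE 0.173, adjusted p = 0.017). Sstr3, a somatostatin receptor of neuronal cilia, rose by 0.6 (SE 0.129) and Npy1r, a neuropeptide Y receptor, by 0.55 (SE 0.116). The other Npy1r probe set read in the opposite direction (-0.24) and did not pass in either fit. Cckbr, a cholecystokinin receptor, read 5.34, 5.82 and 5.86 in the wild types and 5.92, 6.18 and 6.93 in the mutants (0.55, SE 0.146, adjusted p = 0.043). It is a gene in which all 3 wild types lay below all 16 mutants.

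Receptors of other transmitters changed in both directions. Among 25 receptors of monoamines and acetylcholine, of which 2 were higher and 2 lower without the array labelled wild type 3, Drd1 rose and Htr1a, an inhibitory serotonin receptor, fell (6.74, 6.9 and 5.2 in the wild types and 5.19, 5.51 and 5.84 in the mutants, a difference of -0.79, SE 0.211, adjusted p = 0.048). Htr1a did not pass with age in the model (adjusted p = 0.054). Of 31 glutamate receptors and partners, 1 rose and 3 fell, and 5 were higher and 7 lower without the array labelled wild type 3. Gria1, an AMPA receptor subunit that CaMKII phosphorylates, read 11.38, 11.36 and 10.75 against 10.65, 10.79 and 10.91 (-0.37, SE 0.089, adjusted p = 0.024). Cnih3 and Shisa9, auxiliary proteins of AMPA receptors, fell by 1.24 (SE 0.307, adjusted p = 0.03) and 0.68 (SE 0.146, adjusted p = 0.014) on the log2 scale. Grm8, a presynaptic metabotropic receptor, rose by 0.67 (SE 0.179, adjusted p = 0.047), and was lost with the run as a block (adjusted p = 0.06).

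Of 38 potassium channel genes 2 rose and 0 fell, and 8 were higher and 4 lower without the array labelled wild type 3. The shares that passed were 5.26% and 31.6%, against 2.66% and 11.3% of all genes. Kcnt2, a sodium-activated channel, read 7.56, 8.47 and 10.84 in the wild types and 9.65, 10.52 and 10.76 in the mutants (1.47, SE 0.372, adjusted p = 0.034). The array labelled wild type 3 was the highest of the 19. Kcnk1, a leak channel, rose by 0.36 (SE 0.083, adjusted p = 0.02). Of 26 sodium and calcium channel genes 1 rose and 2 fell, and 4 were higher and 4 lower without the array labelled wild type 3. Ryr1, a calcium release channel of the endoplasmic reticulum, read 5.77, 5.91 and 3.61 against 3.14, 3.4 and 3.93 (-1.67, SE 0.276, adjusted p = 0.01). The sodium channel beta subunits moved apart, since Scn4b rose by 0.8 (SE 0.163, adjusted p = 0.012) and Scn3b fell by 0.6 on the log2 scale (SE 0.16, adjusted p = 0.044).

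**Figure D3:**
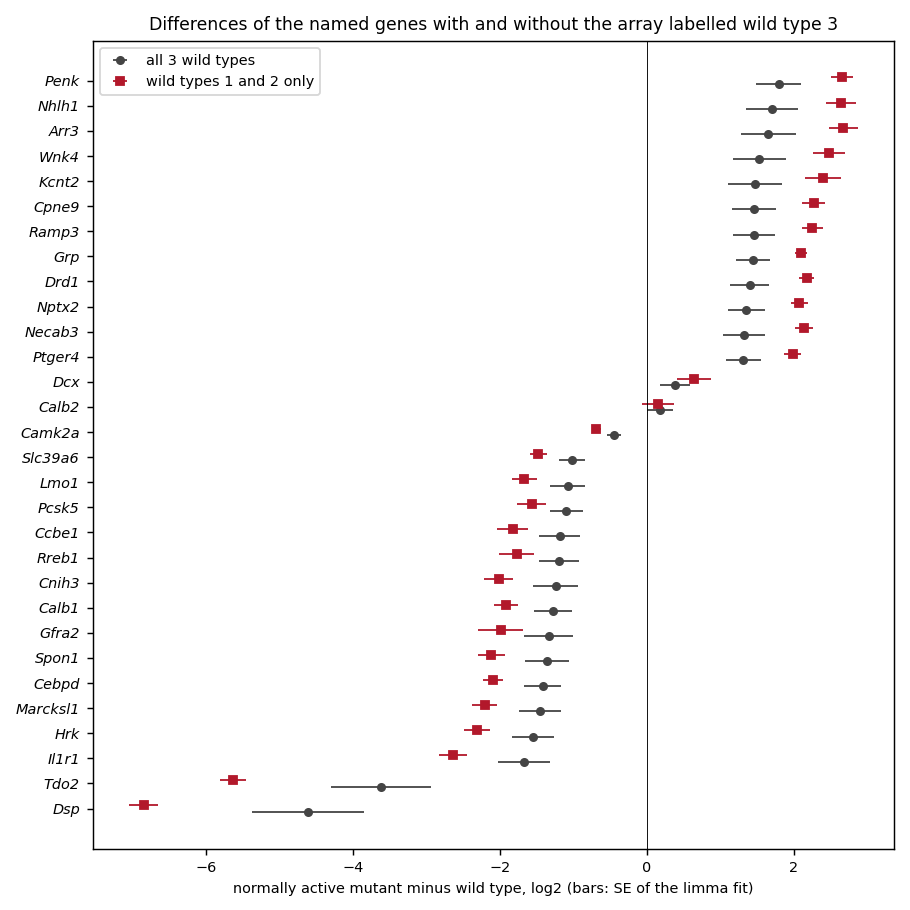
Log2 difference between the normally active mutants and the wild types, with the SE of the limma fit as bars. Shown are Camk2a, the granule-cell genes named whatever their values, and the 12 widest rises and falls. These rises and falls were taken from those of the 9097 genes of highest mean that passed in both fits. Genes with clone or predicted symbols were left out. Squares, without the array labelled wild type 3, lie farther from 0 than circles for each of these genes except Calb2 (0.15 against 0.18).

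The remaining wide rises and falls among brighter genes belong to no single family. Arr3, an arrestin best known from cone photoreceptors, read 4.99, 4.2 and 7.64 in the wild types and 6.72, 7.25 and 7.67 in the mutants. It rose by 1.65 (SE 0.375, adjusted p = 0.019), or by 2.67 without the array labelled wild type 3. Wnk4, a kinase that regulates chloride cotransporters, read 3.66, 4.79 and 7.03 against 6.26, 6.75 and 7.02, a rise of 1.53 (SE 0.358, adjusted p = 0.021) or 2.47. Necab3, a calcium-binding protein, rose by 1.32 (SE 0.288) or 2.13, and Ptger4, a prostaglandin E2 receptor, by 1.31 (SE 0.242) or 1.98, in the same order of fits. Marcksl1, an actin-regulating substrate of protein kinase C, read 9.67, 9.98 and 7.57 in the wild types and 7.2, 7.68 and 8.08 in the mutants (-1.46, SE 0.285, adjusted p = 0.01). Slc39a6, a zinc importer, read 10.53, 10.78 and 9.29 against 8.78, 9.21 and 9.38 (-1.02, SE 0.179, adjusted p = 0.01). Pcsk5, a proprotein convertase, fell by 1.1 (SE 0.226) and Ccbe1, a secreted factor of lymphatic growth, by 1.19 (SE 0.276).

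Regulators of apoptosis changed in both directions, with 2 of 24 higher and 2 lower, and 3 higher and 4 lower without the array labelled wild type 3. Hrk, a BH3-only activator of cell death, read 8.6, 8.26 and 6.14 in the wild types and 5.69, 6.09 and 6.58 in the mutants (-1.55, SE 0.291, adjusted p = 0.01). The other Hrk probe set differed by -0.03 and did not pass in either fit. Bcl2l11, also a BH3-only activator, rose by 0.73 (SE 0.163, adjusted p = 0.017) and Bcl2, which opposes both, by 0.43 (SE 0.111, adjusted p = 0.041). Each has 4 other probe sets, of which 0 passed in either fit, and in Bcl2 the mutants overlapped wild type 2. Dapk1, a calmodulin-regulated kinase linked to cell death, read 9.31, 9.13 and 8.84 against 8.46, 8.68 and 8.82. Its difference was -0.42 (SE 0.081, adjusted p = 0.01), and all 3 wild types lay above all 16 mutants.

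Of 52 axon guidance genes 7 rose and 3 fell, and 10 were higher and 7 lower without the array labelled wild type 3 (medians 0.055 and 0.06). Unc5d, a netrin receptor, read 7.14, 7.34 and 9.05 in the wild types and 8.59, 8.81 and 9.03 in the mutants (0.98, SE 0.213, adjusted p = 0.015). Plxna1 and Plxna2, semaphorin receptors, rose by 0.67 (adjusted p = 0.021) and 0.47 (adjusted p = 0.03). Sema5b and Sema3c, semaphorins, rose by 0.69 (adjusted p = 0.021) and 0.46 (adjusted p = 0.041). Spon1, the matrix protein F-spondin, read 9.03, 9.06 and 6.75 against 6.51, 6.91 and 7.41 (-1.36, SE 0.296, adjusted p = 0.015). Slit1, a repellent ligand of Robo receptors, and Epha10, an ephrin receptor, fell by 0.54 (SE 0.111) and 0.87 (SE 0.182) on the log2 scale.

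Cell adhesion genes of the cadherin and desmosome list rose in 1 and fell in 5 of 30, and 4 were higher and 7 lower without the array labelled wild type 3. Beside Dsp, its desmosomal partner Dsg2 (desmoglein) read 6.24, 6.35 and 4.9 in the wild types and 4.04, 4.69 and 5.21 in the mutants (-1.15, SE 0.247, adjusted p = 0.014). Cdhr1, a cadherin-related protein of photoreceptors, read 7.13, 6.81 and 4.34 against 3.45, 4.32 and 4.86 (-1.79, SE 0.343, adjusted p = 0.01). Pcdh8, an activity-regulated protocadherin, fell by 0.31 on the log2 scale (SE 0.074, adjusted p = 0.026), with all 3 wild types above the mutants. Cdh4, R-cadherin, rose by 0.56 (SE 0.118). Of 37 synaptic adhesion genes, 2 rose, among them Nrxn3, a presynaptic neurexin (0.74, SE 0.15, adjusted p = 0.012), and 1 fell. That one, Lrrtm1, a postsynaptic partner of neurexins (-0.65, SE 0.175), lay just inside the threshold and was lost with the run as a block (adjusted p = 0.063). The other rise, Ptprd, a presynaptic phosphatase, was lost with age in the model (adjusted p = 0.057). In the fit without the array labelled wild type 3, 10 of the 37 were higher and 2 lower.

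In the Wnt, growth factor and matrix lists the genes that passed with all 3 wild types fell. In the Wnt list 0 of 36 rose and 4 fell, and 2 were higher and 7 lower without the array labelled wild type 3, while the medians were 0.038 and -0.019. Wnt9a, a ligand, read 7.61, 7.69 and 5.3 in the wild types and 4.87, 5.33 and 5.78 in the mutants (-1.55, SE 0.29, adjusted p = 0.01). Its other probe set read in the opposite direction and did not pass. Frzb, a secreted Wnt antagonist, fell by 0.95 (SE 0.21, adjusted p = 0.017) and Apcdd1, a membrane inhibitor of Wnt, by 0.63 (SE 0.139, adjusted p = 0.015). Fzd5, a Wnt receptor (-0.8, SE 0.213, adjusted p = 0.046), did not pass with age in the model (adjusted p = 0.052) or with the run as a block (adjusted p = 0.071).

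Growth factors and receptors fell in 3 of 45 and rose in 0, and without the array labelled wild type 3, 3 were higher and 4 lower. The shares that passed were 6.67% and 15.6%, against 2.66% and 11.3% of all genes. Gfra1 and Gfra2 encode receptors of the GDNF family. Gfra1 read 9.43, 9.41 and 8.09 in the wild types and 7.93, 8.07 and 8.33 in the mutants (-0.89, SE 0.163, adjusted p = 0.01), and Gfra2 fell by 1.34 (SE 0.331, adjusted p = 0.029). Tgfa, a ligand of the EGF receptor, fell by 0.89 (SE 0.189, adjusted p = 0.013). The 2 other Tgfa probe sets differed by -0.02 and -0.03 and did not pass in either fit. Of 46 matrix genes 3 fell and 0 rose, namely Lamb1 (laminin beta), Fbln1 (fibulin) and Adamts3 (a procollagen protease), with differences of -1.02, -1.06 and -0.66, and 3 matrix genes were higher and 8 lower without the array labelled wild type 3. Of 38 genes of BMP, activin and TGF-beta signalling 2 rose and 1 fell. Without the array labelled wild type 3, 3 of the 38 were higher and 5 lower, Inhba among the lower. Inhbb, an activin subunit, rose by 0.81 (SE 0.172, adjusted p = 0.014). Its other probe set differed by 0.03 and did not pass in either fit.

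Neuronal transcription factors rose in 2 and fell in 5 of 44, with 9 higher and 9 lower without the array labelled wild type 3. Bcl11b, a zinc-finger factor needed for granule cell maturation, read 11.31, 11.5 and 10.89 in the wild types and 10.55, 10.8 and 10.87 in the mutants (-0.48, SE 0.092, adjusted p = 0.01). All 3 wild types lay above all mutants, the array labelled wild type 3 by a small margin. Cebpd, a leucine-zipper factor, fell by 1.42 (SE 0.251, adjusted p = 0.01), Lmo1, a LIM-only cofactor, by 1.08 (SE 0.242) and Neurod2, a neuronal helix-loop-helix factor, by 0.68 (SE 0.141). Nfatc2, a factor activated by calcineurin, rose by 0.57 (SE 0.11, adjusted p = 0.01).

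**Figure D4:**
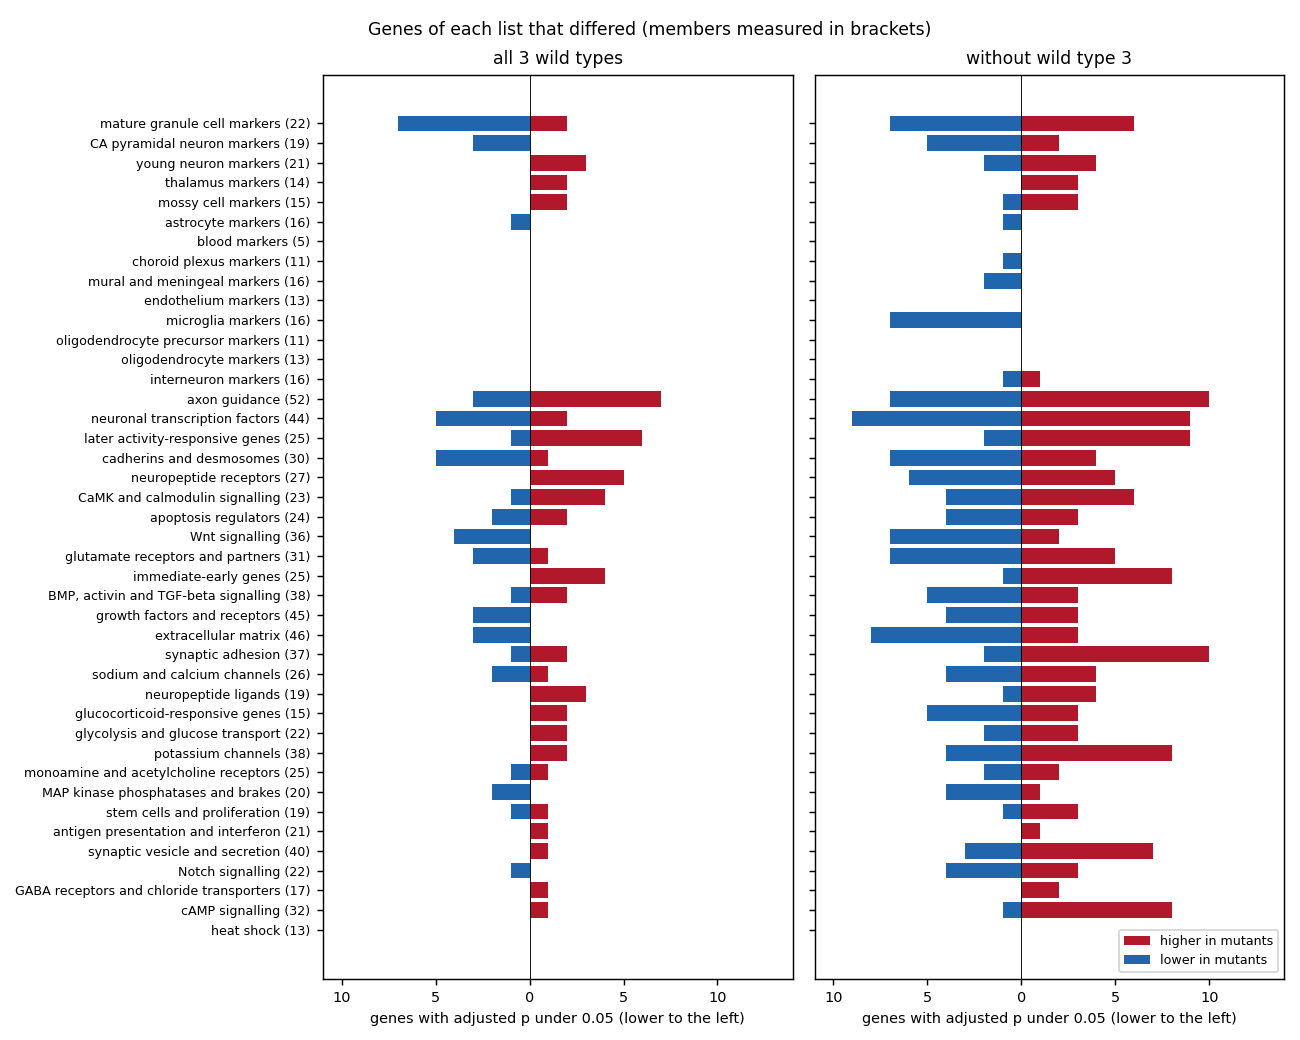
Bars give the number of genes of each of the 42 lists past an adjusted p of 0.05, higher in mutants to the right and lower to the left, with all 3 wild types (left) and without the array labelled wild type 3 (right). Numbers in brackets are the members measured. Over all 18194 genes 2.66% passed in the fit on the left and 11.3% in that on the right. Mature granule cell markers have 7 lower and 2 higher on the left, and axon guidance has 7 higher and 3 lower.

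The 16 mutants and wild types 1 and 2 did not overlap in 2048 genes (11.3%), with mutants above in 840 and below in 1208. With the array labelled wild type 3 included, 42 genes (0.231%) still did not overlap, with mutants above in 20 and below in 22. Bcl11b, Cckbr, Dapk1 and Pcdh8, described above, belong to these. In Bcl11b, Dapk1 and Pcdh8 the array labelled wild type 3 lay nearer to the mutant median than to wild types 1 and 2, and in Cckbr it lay beside wild type 2.

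Markers of other cell types were read in the same fits, in which 2.66% and 11.3% of all genes passed. With all 3 wild types 0 genes passed among markers of oligodendrocytes, their precursors, endothelium, mural and meningeal cells, choroid plexus, microglia, interneurons and blood. Without the array labelled wild type 3, Ogn and Lum of the 16 mural and meningeal markers and Kl of the 11 choroid plexus markers were lower, and of the 16 interneuron markers Kcnc1, a potassium channel, was higher and Gad1, which makes GABA, lower. Oligodendrocytes, their precursors, endothelium and blood had 0 in that fit too. Of 16 astrocyte markers Slc4a4, a bicarbonate transporter, fell in both fits and 0 rose. Of 15 mossy cell markers Cda and Grm8 rose and 0 fell. Without the array labelled wild type 3, 3 of them were higher and 1 lower. Of 14 thalamus markers Ntng1 and Ramp3 rose and 0 fell, and 3 were higher and 0 lower without that array. Calb2, a member of the mossy cell and thalamus lists, passed in neither of these fits. In bulk tissue, fewer cells of a type and less RNA per cell cannot be told apart. Of 19 CA pyramidal neuron markers, 3 fell: Tspan18 (-0.92, SE 0.169, adjusted p = 0.01), Iyd (-1.17, SE 0.233, adjusted p = 0.012) and Rgs14 (-0.65, SE 0.156, adjusted p = 0.025). The mean level of the CA list was 7.64, 7.5 and 7.03 in the wild types and 6.63 to 7.75 in the mutants. Of these markers 2 were higher and 5 lower without the array labelled wild type 3. The part of this list in other differences was not tested.

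The microglial list lay lower in the mutants than in wild types 1 and 2. Of 16 markers 0 passed with all 3 wild types, 7 were lower and 0 higher without the array labelled wild type 3. The mean level of the list was 7.45, 7.37 and 6.95 in the wild types and 6.87 to 7.23 in the mutants, so that all 16 mutants lay below wild types 1 and 2. Csf1r, the receptor that microglia need to survive, read 10.7, 10.42 and 10.02 against 9.99, 10.19 and 10.3 (-0.2, SE 0.093, adjusted p = 0.35, and -0.38, adjusted p = 0.0046, without the array labelled wild type 3). Whether this list has a part in other differences was not tested. Ogn, a matrix protein of the meninges, read 6.59, 7.33 and 3.59 in the wild types and 2.73, 3.52 and 6.19 in the mutants (-2.01, SE 0.584, adjusted p = 0.071). Its difference was -3.14 without the array labelled wild type 3 (SE 0.55, adjusted p = 0.00044), and with the run as a block it passed (adjusted p = 0.049). Lum, a proteoglycan of the same tissue, differed by -0.91 (adjusted p = 0.21), and by -1.61 without that array (adjusted p = 0.0014). The mural and meningeal list read 6.59, 6.94 and 6.02 in the wild types and 5.97 to 7.45 in the mutants. Its part in other differences was not tested either.

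Among the 16 mutants, the slope on age passed the threshold in 0 of 18194 genes (limma, 2156 at an unadjusted p under 0.05), and in 0 with the run as a block (1056 unadjusted). Against the 21 higher-activity mutants, in 1 fit over the 3 groups, 8 genes differed (0.044%, 689 unadjusted), and 0 of the 122 genes named by the rule were among them. Without the array labelled mutant 27, whose Dsp value of 10.07 and Tdo2 value of 8.39 lay near wild types 1 and 2, 9 genes differed, again 0 of the 122. In that fit no named gene differed by more than 0.31 between the 2 mutant groups. Penk had a median of 10.18 in normally active and 10.14 in higher-activity mutants, Drd1 8.85 and 8.82, and Calb1 9.58 and 9.62.

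**Figure D5:**
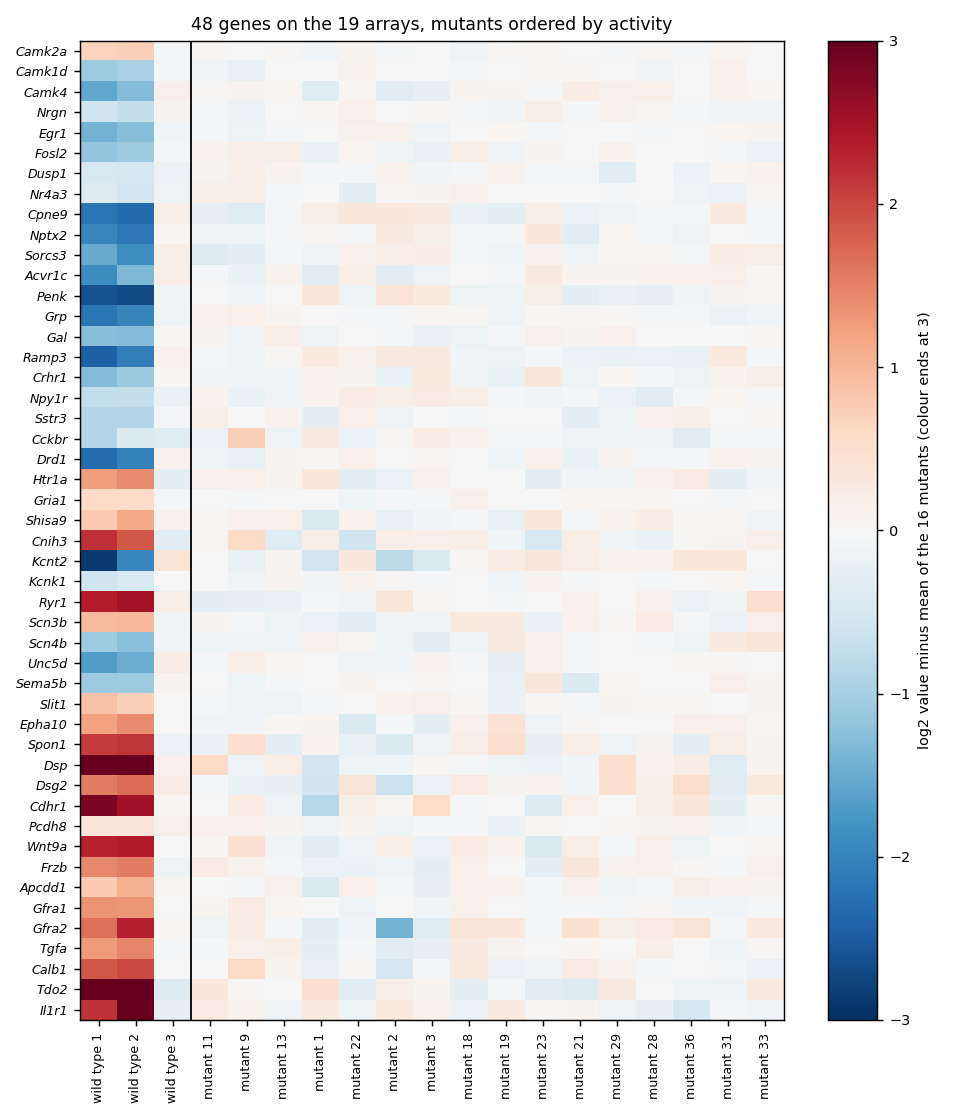
Log2 value minus the mean of the 16 mutants for 48 genes (rows, grouped by role) on the 3 wild-type and 16 mutant arrays (columns, mutants in order of rising activity). Wild types 1 and 2 carry strong colours in rows such as Dsp and Tdo2, and pale ones in rows of small differences, such as Pcdh8 and Nr4a3. The array labelled wild type 3 is as pale as the mutants, with Dsp at 3.31 in it and 3.12 in the median mutant.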

How the data were processed

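Total RNA of the dentate gyrus was labelled with biotin and hybridised to 1 array per animal, per the labels' protocols. The authors deposited 1 log2 value for each probe set and array, computed with RMA, per the submitters' processing notes, which give no version. RMA corrects background and normalises between arrays, so only relative levels can be compared. Raw probe-level intensities were not used here, and the number of arrays (16 against 3) limits the precision. The values ran from 1.67 to 13.98 over 45101 probe sets.

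Of these, 34958 name 1 gene, 932 name several and 9211 list none here, and 64 are array controls. Gene IDs of 34754 matched RefSeq's, which changed 0 symbols. The brightest probe set by its average over the 40 arrays stood for each gene, and 18194 genes entered without a filter on dim ones. Over the named genes that passed, 141 of 152 other probe sets had the same sign, and 38 passed in the same and 0 in the opposite direction.

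The groups were fitted with limma 3.58.1 in R 4.3.3 (lmFit, then eBayes, 2-sided), with p-values adjusted by Benjamini-Hochberg over all genes and a threshold of 0.05, with and without the array labelled wild type 3. Data were read with version 1.17.8 of data.table. Age was compared by an exact permutation test. The procedure was tested on simulated data. The 42 gene lists place 1020 of 1092 members, 971 different genes.

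The comparison, the lists and the named genes were chosen with earlier results of these data known. Named were Camk2a and 8 granule cell genes whatever their values, and per direction up to 12 genes with the largest difference among the 9097 genes of highest mean that passed with and without that array. From each list up to 5 members with the smallest p among those that passed were added, or failing that up to 2. Genes named outside this rule illustrate a list or were chosen after their values were seen. Alternatives covered left-out wild types, runs of 8 samples, age and activity in the model, scaling, array weights, dim genes and probe sets. Any 2 arrays correlated at 0.984 to 0.998 over genes, and the smallest SD of a difference was 0.152, so no array duplicated another. Promoter sequences are RefSeq's on GRCm38.p6.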

Additional observations from a re-analysis of the deposited data

Results flagged for a closer look

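Outside the gene analysis stand 10092 probe sets that name several genes or none. Of these, 27 differed between normally active mutants and wild types with all 3 wild types (14 higher and 13 lower, limma adjusted p under 0.05), and 531 without the array labelled wild type 3. They enter no comparison of the report and are listed because a signal appeared in data it does not use. Single arrays that stand apart were not tested for within the groups of 3, 16 and 21 arrays.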

How the results depend on the processing

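The counts rest on the arrays labelled wild type 1 and 2. Leaving out 1 wild type gave from 0 to 2047 genes against 484, and Camk2a differences from -0.69 to -0.33. The run as a block gave 925 genes, 461 of them shared with the 484 in the same direction, and the run as a block without the array labelled wild type 3 gave 2740. Array weights gave 5069 (1970 higher and 3099 lower), and arrays centred on their median, without the array labelled wild type 3, gave 1990, an alternative chosen after seeing the data. The weights and the median centring changed no direction among the named genes except Mog, at 0.05 with array weights. The replicate block, over mutants 1 to 3 and the 3 wild types, gave 0 genes (2615 at an unadjusted p under 0.05), with Camk2a at -0.5 (limma adjusted p = 0.34). It reversed Dcx (-0.1), Mog (0.11), Olig2 (0.14), Tyrobp (0), Cdh5 (0.16), Cldn5 (0.02) and Hsph1 (-0.02), none of which passed with all 3 wild types or under the block. Same-numbered samples deviated together in pair 1 but not in pairs 2 and 3 (correlations 0.45, -0.18 and -0.26), so the numbers were not taken to pair them. Of the 100 named genes that passed, 100 were lost without wild type 1, without wild type 2 and under the replicate block. With 1 wild type left out, Cldn5 ranged from -0.29 to 0 and Hba-a2 from -0.34 to 0.02. The cause of these changes was not tested. The other alternatives gave 361 to 709 genes, within 1.5 times the main count, namely age, activity, median centring with all 3 wild types, the 3-group fit, eBayes with trend, the 9097 brighter genes and the mean of probe sets. With the mean of probe sets 21 of the 122 named genes no longer passed. The log2 activity difference, a description only, was 0.048 to 0.325 with 1 wild type left out. Only 3 wild types limit all estimates, and no alternative separates the label of wild type 3 from its values.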

Other observations

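Other lists of the same fits moved in few genes. Of 22 genes of glycolysis and glucose transport 2 rose with all 3 wild types and 0 fell, and 3 were higher and 2 lower without the array labelled wild type 3. Pfkp, a phosphofructokinase, read 9.27, 9.32 and 9.78 in the arrays labelled wild type 1, 2 and 3 and 9.72, 9.91 and 10.1 as the lowest, median and highest of the normally active mutants (0.45, SE 0.087, limma adjusted p = 0.01). Ldha, lactate dehydrogenase A, read 9.93, 9.84 and 10.14 against 10.13, 10.19 and 10.29 (0.24, SE 0.062, adjusted p = 0.041). In both genes wild types 1 and 2 lay below all 16 mutants.

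Of 15 glucocorticoid-responsive genes 2 rose and 0 fell, and 3 were higher and 5 lower without the array labelled wild type 3. The 5 were Errfi1, Fkbp5, Mt1, Mt2 and Zbtb16. The median of the list was -0.076 and -0.157 in the 2 fits. Its shares that passed were 13.3% and 53.3%, against 2.66% and 11.3% of all genes. Cdkn1a, a cell cycle inhibitor, rose by 0.64 (SE 0.151, adjusted p = 0.023). Of 40 genes of synaptic vesicles and secretion 1 rose, Cadps2, which primes dense-core vesicles. It read 9.07, 9.28 and 9.93 in the wild types and 9.81, 9.91 and 10.36 in the mutants (0.53, SE 0.125, adjusted p = 0.022). Without the array labelled wild type 3, 7 of the 40 were higher and 3 lower. The shares that passed were 2.5% and 25%, against 2.66% and 11.3% of all genes. Jag1, a Notch ligand, fell by 0.68 (SE 0.176, adjusted p = 0.039) as 1 of 22 Notch genes, of which 3 were higher and 4 lower without the array labelled wild type 3. In both fits Irf1, an interferon-regulated factor, was the 1 of 21 genes of antigen presentation and interferon that passed (0.32, SE 0.083, adjusted p = 0.038 with all 3 wild types). Of 13 heat shock genes 0 passed in either fit.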
